A study of Mus musculus with 17 samples.

Results

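The 36 genes described here encode aminoacyl-tRNA synthetases, 20 of the cytosol and 16 of the mitochondrion. They were chosen by name, with earlier results of these data known. All 36 were matched to a row of the deposited count tables, which hold 43430 mouse gene IDs. RNA of sorted AT2 cells (alveolar epithelial type 2 cells, which make surfactant) was sequenced from mice of the strain C57BL/6J at 2 months of age. In the first experiment 4 libraries came from naive mice given vehicle and 4 from naive mice given ISRIB, a compound that activates the guanine nucleotide exchange factor eIF2B and so counters the integrated stress response. Those cells were taken 24 h later, and poly(A) libraries were made from 3 ng of RNA. In the second experiment 4 libraries were from naive mice and 5 were made 14 days after bleomycin, a drug that injures the lung, and total-RNA libraries were made from 0.35 ng of RNA. All 9 of these carry vehicle as their treatment, and their titles, like those of the first vehicle group, say saline. No genotype other than the strain, no drug dose and no sorting marker is given in the labels used here. The 2 kits differ in RNA selection and input, so ISRIB was compared with vehicle within the poly(A) libraries and bleomycin with naive within the total-RNA libraries. Libraries are named by group and by the replicate number of their labels.

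Aminoacyl-tRNA synthetases join each amino acid to its tRNA, and the charged tRNAs feed the ribosome. Most amino acids have a cytosolic enzyme and a separate mitochondrial enzyme, both encoded in the nucleus, and mouse symbols of mitochondrial enzymes end in 2. Some cytosolic enzymes are held together with the scaffold proteins Aimp1, Aimp2 and Eef1e1 in the multi-synthetase complex. Gars and Kars each encode both the cytosolic and the mitochondrial form, and Eprs joins glutamyl- and prolyl-tRNA synthetase in a single protein. When amino acids are short, uncharged tRNA activates the kinase GCN2, which phosphorylates eIF2alpha and so raises translation of the transcription factor ATF4. ATF4 is known to raise genes of amino acid supply, many cytosolic synthetase genes among them. In the sets used below, 12 of the cytosolic enzymes were listed as ATF4-linked (Aars, Cars, Eprs, Gars, Iars, Lars, Mars1, Nars, Sars, Tars, Wars and Yars) and 8 as members of the complex (Dars, Eprs, Iars, Kars, Lars, Mars1, Qars and Rars).

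The ATF4 link can be looked for in the DNA at the start of the genes. RefSeq promoter windows (GRCm38.p6, 250 bases before to 50 bases after the annotated start) matched 27 of the 36 genes by symbol, 13 cytosolic and 14 mitochondrial. Without an entry were Cars, Hars, Lars, Nars, Rars, Vars, Wars, Hars2 and Pars2. The core of the C/EBP-ATF response element, TGATGNAA, was searched on both strands. It occurred in 5 of the 13 cytosolic windows (Aars, Gars, Iars, Tars and Yars), in 0 of the 14 mitochondrial windows and in 3.97% of the 32851 windows of the table. The stricter spelling TGATGCAA, which is contained in the first, occurred in 4 of 13, 0 of 14 and 0.895%. At shares this low, 0 of 14 does not set the mitochondrial windows apart from those of the table. All 5 genes with a match are in the ATF4-linked set. Eprs, Mars1 and Sars of that set had a window without a match, as did Dars, Farsa, Farsb, Kars and Qars outside it. A match is a run of letters, and no binding was measured here. The next 4 windows are those with the stricter spelling. They are printed 5′ to 3′ on the strand of the gene with each match in capitals, which reads TTGCATCA or TTTCATCA where the element lies on the other strand. Aars (chr8:111033592-111033891, plus strand) holds matches at -112 to -105 and at 10 to 17 relative to the start. Iars (chr13:49681880-49682179, plus strand) holds a match at 8 to 15, Tars (chr15:11399609-11399908, minus strand) at -15 to -8 and Yars (chr4:129189653-129189952, plus strand) at 4 to 11.
Aars: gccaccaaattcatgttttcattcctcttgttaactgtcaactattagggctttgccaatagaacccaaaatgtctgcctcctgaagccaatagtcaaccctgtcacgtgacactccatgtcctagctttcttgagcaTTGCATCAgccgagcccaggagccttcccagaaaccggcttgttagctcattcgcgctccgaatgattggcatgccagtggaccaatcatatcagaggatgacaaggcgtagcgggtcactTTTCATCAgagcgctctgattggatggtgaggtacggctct
Iars: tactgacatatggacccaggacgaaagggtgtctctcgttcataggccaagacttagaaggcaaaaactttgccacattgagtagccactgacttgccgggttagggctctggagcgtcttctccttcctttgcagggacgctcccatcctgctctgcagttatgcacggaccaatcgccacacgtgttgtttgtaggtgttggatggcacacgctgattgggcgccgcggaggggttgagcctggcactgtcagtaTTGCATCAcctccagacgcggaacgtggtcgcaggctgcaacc
Tars: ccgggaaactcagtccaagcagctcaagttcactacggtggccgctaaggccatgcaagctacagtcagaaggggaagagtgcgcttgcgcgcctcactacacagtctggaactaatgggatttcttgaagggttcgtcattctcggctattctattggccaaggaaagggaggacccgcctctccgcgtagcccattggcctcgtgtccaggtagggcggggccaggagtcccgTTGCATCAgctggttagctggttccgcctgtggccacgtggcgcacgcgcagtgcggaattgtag
Yars: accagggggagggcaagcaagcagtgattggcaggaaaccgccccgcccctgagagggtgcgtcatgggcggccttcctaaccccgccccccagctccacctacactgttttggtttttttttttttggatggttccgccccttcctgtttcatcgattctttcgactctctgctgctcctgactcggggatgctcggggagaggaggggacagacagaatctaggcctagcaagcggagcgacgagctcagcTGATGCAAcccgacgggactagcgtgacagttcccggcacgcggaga

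All libraries held the defining AT2 transcripts. The 10 AT2 markers, led by surfactant genes such as Sftpc, took 18.0% to 18.9% of the counts of the poly(A) libraries, 7.98% to 8.20% of those of the naive total-RNA libraries and 4.90% to 9.04% of those of the bleomycin libraries. Poly(A) libraries held 10493574 to 15727139 counts, naive total-RNA libraries 3295257 to 4654479 and bleomycin libraries 3299824 to 6333166. Genes with at least 1 count numbered 17108 to 19763 in naive and 13940 to 17112 in bleomycin libraries. The part of this difference in the synthetase values was not tested. The biological coefficient of variation between libraries of a group was 7.66% in the first experiment and 21.1% in the second, so smaller changes could be called after ISRIB than after bleomycin. The labels do not say whether replicates came from separate mice, and p-values measure only the spread between these libraries.

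Most cytosolic synthetase mRNAs were more abundant than most mitochondrial ones in control AT2 cells, apart from Lars2. Levels are given here as CPM (counts scaled to a common library size) per kilobase of the longest principal transcript, as mean ± SD of 4 libraries. In vehicle libraries Gars was highest among cytosolic enzymes at 31.8 ± 1.85, followed by Qars (31.5 ± 1.80), Sars (29.7 ± 0.480) and Nars (28.9 ± 1.04). Neighbours in that order overlapped in their mean ± SD. Cars was the lowest cytosolic member at 4.30 ± 0.635. Among mitochondrial enzymes, Vars2 (12.2 ± 0.767) and Iars2 (11.1 ± 0.623) were highest after Lars2, and Pars2 (1.03 ± 0.319) was lowest. In naive total-RNA libraries Gars (28.2 ± 2.16) and Eprs (26.5 ± 0.877) led the cytosolic enzymes and Yars was lowest at 6.29 ± 0.825. Vars2 (12.1 ± 1.78) and Iars2 (11.2 ± 2.08) again stood highest among mitochondrial enzymes after Lars2, and Pars2 stood at 0.660 ± 0.284.

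**Figure D1:**
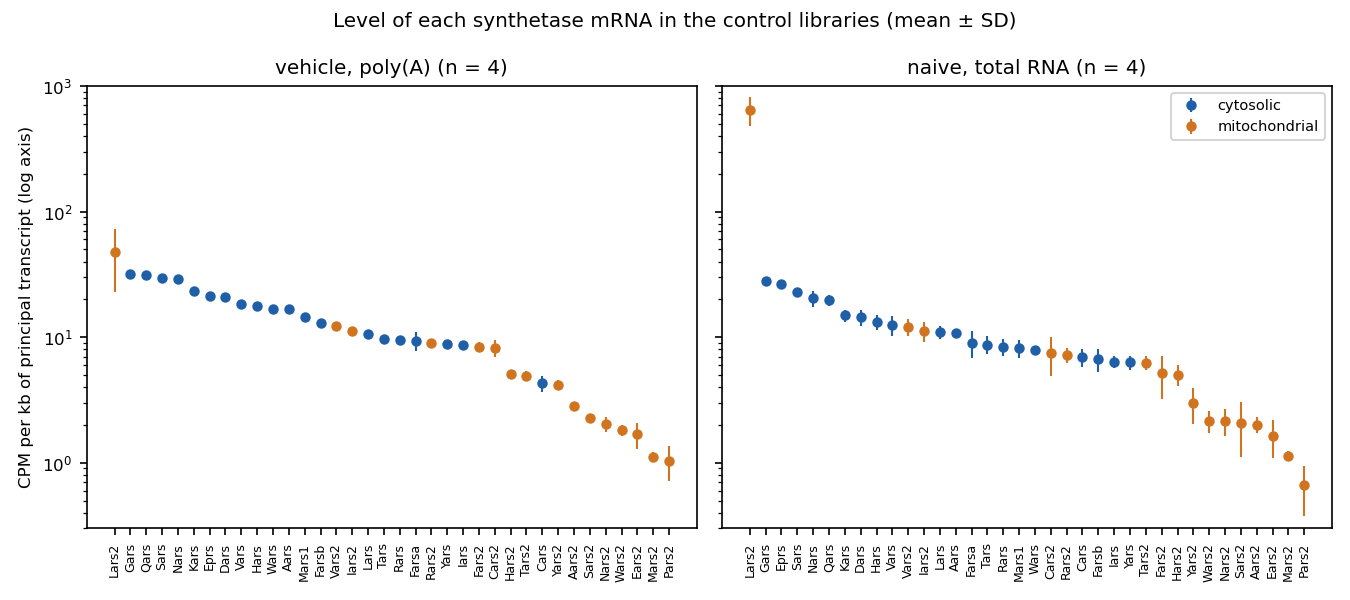
Control level of each of the 36 synthetase genes in CPM per kilobase on a log axis, in vehicle poly(A) libraries and in naive total-RNA libraries. Points are means of 4 libraries, bars are SD, genes are ordered by level and colour separates cytosolic from mitochondrial enzymes; by group mean Lars2 stands above every other gene, most of all in total RNA, and Pars2 lies lowest.

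Lars2, the mitochondrial leucyl enzyme, was handled apart. Its row read 47.9 ± 25.0 CPM per kilobase in vehicle libraries and 644 ± 167 in naive total-RNA libraries. It took 0.00883% to 0.0313% of the counts of poly(A) libraries and 0.135% to 0.314% of those of total-RNA libraries. In naive 1, the members held 13539 counts, of which 3191 were left without Lars2. In each of the 9 total-RNA libraries Lars2 held more counts than the other 35 members together. The row was listed among rRNA-like gene models, which together took 0.332% to 0.488% of poly(A) counts, 20.1% to 28.9% of naive and 15.5% to 22.9% of bleomycin total-RNA counts. Whether the Lars2 counts come from its mRNA was not tested, and medians and scores of mitochondrial enzymes are given without it where stated.

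Neither class of synthetase changed past the threshold 24 h after ISRIB. With edgeR's quasi-likelihood test and Benjamini-Hochberg adjustment over the 12054 genes tested, 0 of 20 cytosolic and 0 of 16 mitochondrial members were called at an adjusted p under 0.05. In this comparison 1.1% of all tested genes were called higher and 1.1% lower. DESeq2 and limma-voom also called 0 members. At an unadjusted p under 0.05, edgeR gave 2 cytosolic members and 0 mitochondrial ones, beside 1934 of the 12054 genes tested. Those were Eprs, at 105 ± 5.87 CPM with vehicle and 93.5 ± 4.89 with ISRIB (log2 fold change -0.17, SE 0.06, n = 4 and 4, edgeR adjusted p = 0.145), and Mars1, at 42.8 ± 2.42 and 37.6 ± 2.79 (-0.19, SE 0.07, edgeR adjusted p = 0.203). Both overlapped between groups.

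The log2 fold changes after ISRIB were small and lay on both sides of 0. Cytosolic members ran from -0.19 to 0.11 with a median of -0.04, and 9 of 20 were above 0. Mitochondrial members ran from -0.47 (Pars2) to 0.29 (Ears2) with a median of -0.02, and 7 of 16 were above 0. The 12 ATF4-linked enzymes had a median of -0.08 and the other 8 cytosolic enzymes one of 0.003, beside -0.0001 over all genes tested. When single libraries were left out, the cytosolic median ran from -0.09 (without ISRIB 4) to -0.01 (without vehicle 1), and the mitochondrial median from -0.07 (without ISRIB 4) to 0.02 (without ISRIB 1), on both sides of 0. Approximate 95% intervals (1.96 SE either side) of single cytosolic members reached no further than -0.33 (Mars1) and 0.29 (Rars). For mitochondrial members, which were counted less, the outermost bounds were -0.96 (Pars2) and 0.75 (Lars2). The median SE was 0.0701 for cytosolic and 0.119 for mitochondrial members.

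Groups did not overlap for 2 cytosolic members. Sars, the seryl enzyme, read 107, 106, 104 and 108 CPM with vehicle and 112, 111, 112 and 115 with ISRIB. Hars, the histidyl enzyme, read 38.0, 34.9, 34.0 and 33.3 CPM with vehicle and 31.0, 32.4, 31.9 and 32.3 with ISRIB. Sars therefore lay higher and Hars lower in every ISRIB library, by 0.08 (SE 0.05) and -0.14 (SE 0.07) on the log2 scale, and neither passed the test (edgeR adjusted p = 0.428 and 0.352). Of all genes tested, 4.26% were higher and 4.39% lower without overlap. Hars and Hars2 share 195 exonic bases on opposite strands, and whether counting used strand is unknown here. Lars2 spread widely, with 141, 315, 89.0 and 201 CPM with vehicle and 99.9, 270, 274 and 185 with ISRIB.

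After bleomycin, several cytosolic synthetase genes rose and a single mitochondrial one fell. The difference between the classes is described below gene by gene and library by library, and was not tested as a whole. Of 11223 genes tested, 11.2% were called higher and 9.31% lower. Among the 20 cytosolic members 7 rose, 0 fell, and all 20 estimates were above 0. Among the 15 mitochondrial members tested 0 rose, 1 fell (Cars2), and 7 estimates were above 0 and 8 below. Pars2 was too low to test, at 0.894 to 3.00 CPM in naive and 1.06 to 5.27 in bleomycin libraries. The median log2 fold change was 0.42 for cytosolic members (range 0.07 to 0.75), -0.04 for mitochondrial members (range -0.93 to 0.65) and 0.003 over all genes tested. Without Lars2 the mitochondrial median was 0.01, and it was 0.13 when naive 3 or naive 4 was also left out. In bulk libraries more cells of a type and more RNA per cell cannot be told apart.

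**Figure D2:**
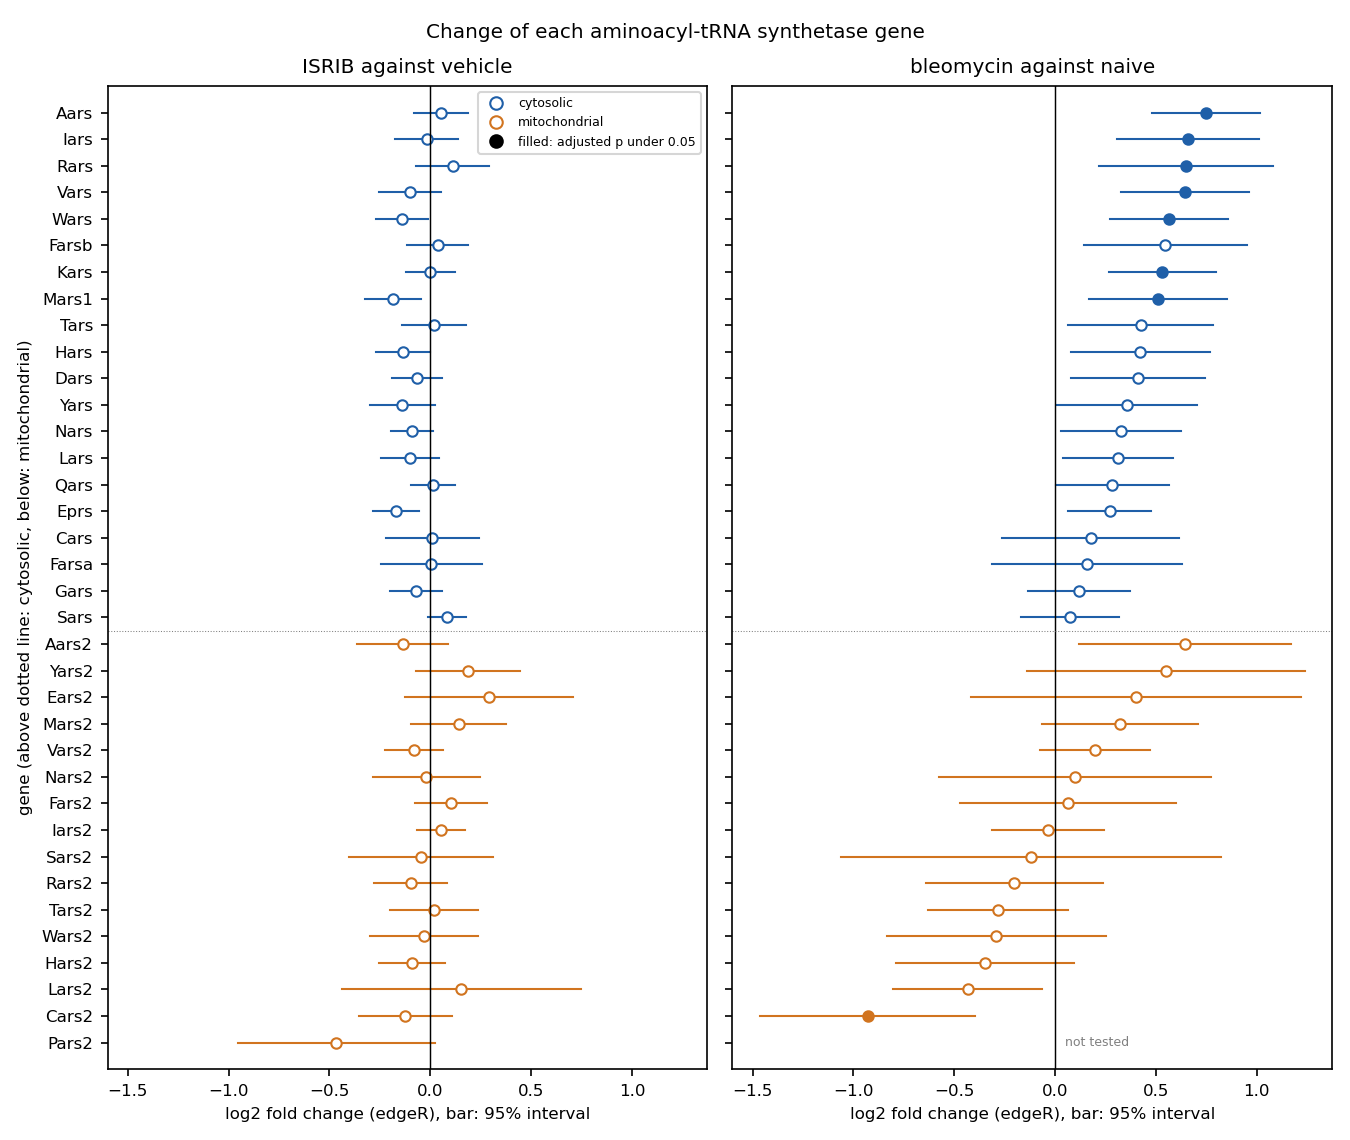
Log2 fold change of each synthetase gene with its approximate 95% interval, after ISRIB (left) and after bleomycin (right), cytosolic above mitochondrial. Filled points passed the adjusted p of 0.05; after ISRIB none did, and after bleomycin all cytosolic estimates lie right of 0 while mitochondrial ones lie on both sides.

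Aars, the alanyl enzyme (ENSMUSG00000031960, chr8:111033144-111057664, plus strand), rose most clearly. Its levels were 64.7, 57.3, 62.8 and 65.0 CPM in naive libraries and 96.8, 99.8, 97.6, 141 and 90.6 CPM after bleomycin. Every bleomycin library exceeded every naive one, and bleomycin 4 stood apart from the other 4. The means were 62.4 ± 3.59 and 105 ± 20.2 (SD, n = 4 and 5), a log2 fold change of 0.75 (SE 0.14, edgeR adjusted p = 7.42e-04). In the annotation Aars shares 1326 exonic bases with Exosc6, an RNA exosome subunit gene, on the same strand.

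Vars, the valyl enzyme (ENSMUSG00000007029, chr17:35000987-35016322, plus strand), had 44.6, 60.5, 59.2 and 42.9 CPM in naive libraries and 83.1, 108, 68.9, 82.0 and 64.5 CPM after bleomycin. The groups did not overlap, with bleomycin 5 nearest to the naive range. Vars thus changed by a log2 fold change of 0.64 (SE 0.16, edgeR adjusted p = 0.00829). Its mitochondrial partner Vars2 had 57.7, 43.8, 61.6 and 50.4 CPM and then 70.1, 55.8, 69.1, 57.2 and 53.1. The Vars2 groups overlapped, at 0.20 (SE 0.14, edgeR adjusted p = 0.346).

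Kars, the lysyl enzyme of cytosol and mitochondrion (ENSMUSG00000031948, chr8:111993443-112011323, minus strand), had 31.2, 36.1, 28.2 and 35.2 CPM in naive libraries and 49.7, 50.5, 44.9, 46.7 and 45.0 CPM after bleomycin. All 5 bleomycin values lay above the naive ones and close to each other. Its log2 fold change was 0.53 (SE 0.14, edgeR adjusted p = 0.00919). Gars, the glycyl gene that also serves both compartments, stood at 67.1 ± 5.13 and 73.0 ± 10.7 CPM, with an estimate of 0.12 (SE 0.13, edgeR adjusted p = 0.568).

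Wars, the tryptophanyl enzyme (ENSMUSG00000021266, chr12:108860030-108894174, minus strand), varied little among naive libraries. It had 23.1, 22.2, 21.9 and 22.7 CPM in naive libraries and 36.8, 32.8, 32.1, 35.3 and 29.6 CPM after bleomycin, with no overlap. The log2 fold change was 0.56 (SE 0.15, edgeR adjusted p = 0.0118). Wars2, the mitochondrial enzyme, had 11.4, 7.48, 8.41 and 10.7 CPM and then 5.29, 8.12, 7.12, 8.97 and 9.03. Its estimate lay on the other side of 0, at -0.29 (SE 0.28, edgeR adjusted p = 0.4999), and its groups overlapped.

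Iars, the isoleucyl enzyme (ENSMUSG00000037851, chr13:49682100-49734267, plus strand), had 26.5, 31.4, 29.7 and 25.0 CPM in naive libraries and 54.5, 58.1, 33.1, 37.4 and 40.2 CPM after bleomycin. The groups did not overlap, and bleomycin 1 and 2 were highest. The log2 fold change was 0.66 (SE 0.18, edgeR adjusted p = 0.0133), and the call was lost without naive 4 (edgeR adjusted p = 0.0567). Iars2 had 54.7, 73.3, 67.6 and 48.6 CPM and then 61.4, 64.4, 51.0, 54.8 and 66.7, an overlap with an estimate of -0.04 (SE 0.14, edgeR adjusted p = 0.884).

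Rars, the arginyl enzyme (ENSMUSG00000018848, chr11:35808381-35834506, minus strand), had 14.8, 19.9, 20.1 and 15.8 CPM in naive libraries and 28.8, 34.5, 34.1, 15.5 and 25.0 CPM after bleomycin. Bleomycin 4, the highest library for Aars, lay within the naive range here. Rars had a log2 fold change of 0.65 (SE 0.22, edgeR adjusted p = 0.0430). This call held in 1 of the 9 fits that each left out a library, the one without bleomycin 4, and the adjusted p reached 0.129 in the others. Rars2 had 12.8, 15.4, 11.4 and 14.3 CPM and then 13.8, 9.93, 13.5, 12.4 and 9.34, at -0.20 (SE 0.22, edgeR adjusted p = 0.570).

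Mars1, the methionyl enzyme (ENSMUSG00000040354, chr10:127296221-127311786, minus strand), had 24.8, 20.1, 22.8 and 29.2 CPM in naive libraries and 28.0, 44.2, 35.6, 31.6 and 32.0 CPM after bleomycin. Bleomycin 1 lay below naive 4, and the other 4 lay above all naive libraries. The log2 fold change was 0.51 (SE 0.17, edgeR adjusted p = 0.0443), and the call held in 3 of the 9 fits that left out a library, with an adjusted p of up to 0.150. It was lost without naive 1, 2 or 3 and without bleomycin 2, 3 or 5. Mars1 shares 68 exonic bases with Ddit3, the gene of the stress factor CHOP, on the opposite strand. Mars2 had 12.1, 11.97, 14.1 and 13.4 CPM and then 18.0, 14.6, 16.1, 17.3 and 14.7. The Mars2 groups did not overlap, but the estimate of 0.32 (SE 0.20) did not pass (edgeR adjusted p = 0.271).

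**Figure D3:**
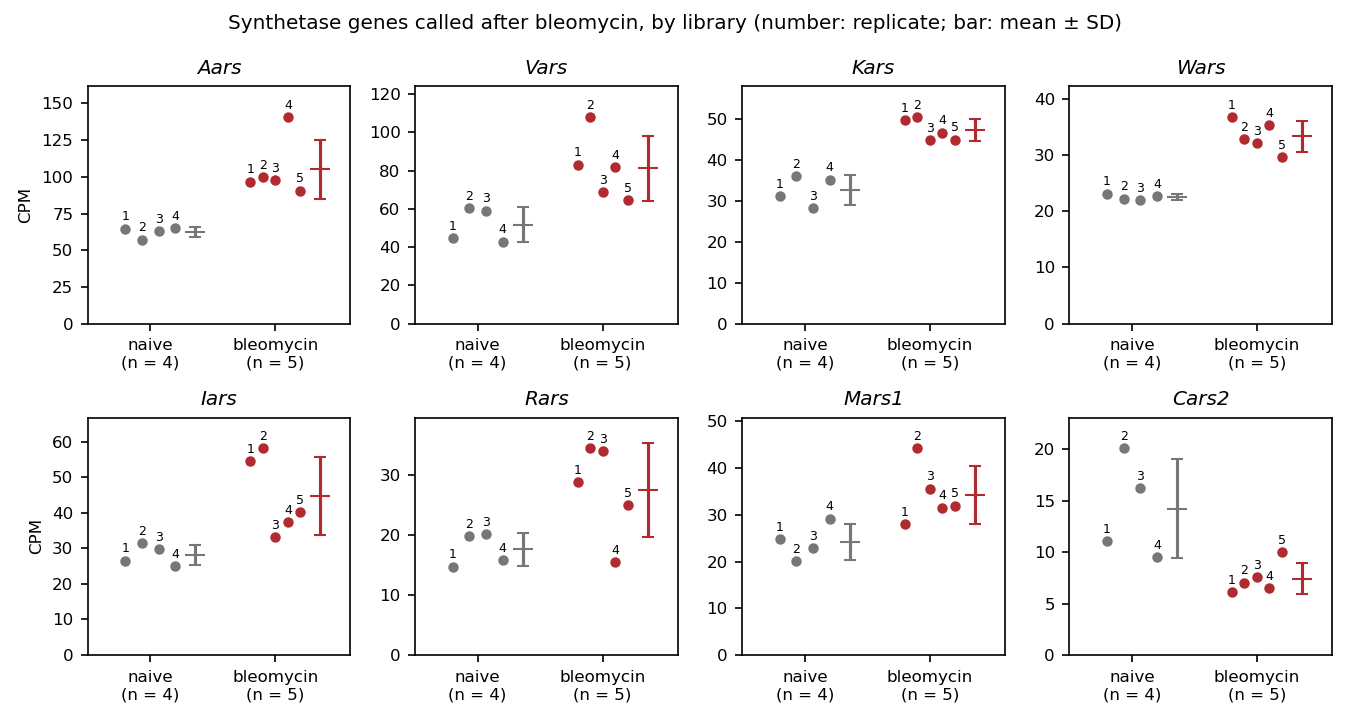
Levels in CPM of the called synthetase genes in each naive and bleomycin library, with each group's mean ± SD beside the points. Aars, Vars, Kars, Wars and Iars are separated between groups, Rars and Mars1 overlap in a single bleomycin library each, and Cars2 is lower after bleomycin.

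The other 13 cytosolic members had estimates from 0.07 (Sars) to 0.55 (Farsb) and did not pass. Eprs lay higher in every bleomycin library, with 127, 136, 128 and 129 CPM in naive and 147, 179, 151, 154 and 152 CPM in bleomycin libraries. Its log2 fold change of 0.27 (SE 0.11) had an edgeR adjusted p of 0.0783, and DESeq2 called it at an adjusted p of 0.0444. Farsb, the beta subunit of the phenylalanyl enzyme, stood at 13.6 ± 2.80 and 20.01 ± 2.90 CPM (0.55, edgeR adjusted p = 0.0686), and its alpha subunit Farsa at 16.5 ± 4.09 and 18.2 ± 4.75 CPM (0.16, edgeR adjusted p = 0.697). The aspartyl enzyme Dars (0.41), the histidyl enzyme Hars (0.42) and the threonyl enzyme Tars (0.42) had edgeR adjusted p of 0.0930, 0.0994 and 0.1096. Nars (0.33), Lars (0.31), Yars (0.36) and Qars (0.28), the asparaginyl, leucyl, tyrosyl and glutaminyl enzymes, followed, and Cars, the cysteinyl enzyme, had 0.18. Without bleomycin 1, Tars (edgeR adjusted p = 0.0108) and Eprs (edgeR adjusted p = 0.0465) were called, and without bleomycin 3, Farsb was (edgeR adjusted p = 0.0498). At an unadjusted p under 0.05, 14 of the 20 cytosolic members stood, all with estimates above 0, beside 3740 of the 11223 genes tested in either direction. Groups were separated for 6 of 20 (Aars, Vars, Kars, Wars, Iars and Eprs), all higher, beside 10.4% higher and 9.35% lower among all genes tested.

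Enzymes inside and outside the ATF4-linked list were among those called higher. Of the 12 listed, Aars, Iars, Mars1 and Wars were called and the median log2 fold change was 0.34. Of the other 8 cytosolic enzymes, Kars, Rars and Vars were called and the median was 0.48. Within the multi-synthetase complex 4 of 8 were called (Iars, Kars, Mars1 and Rars; median 0.46), and outside it 3 of 12 (Aars, Vars and Wars; median 0.39). The difference between these subsets was not tested, nor was any action of ATF4 on genes inside or outside its list. Of the 4 genes whose promoter windows are printed above, Aars and Iars were called, and Tars and Yars (0.36, edgeR adjusted p = 0.166) were not.

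Cars2, the mitochondrial cysteinyl enzyme (ENSMUSG00000056228, chr8:11513977-11550783, minus strand), was the only member called lower. It had 11.1, 20.1, 16.2 and 9.54 CPM in naive libraries and 6.08, 7.04, 7.59, 6.497 and 9.98 CPM after bleomycin. Naive 2 and 3 were high, and bleomycin 5 lay above naive 4. The log2 fold change was -0.93 (SE 0.27, edgeR adjusted p = 0.0206), and the call was lost without naive 2 (edgeR adjusted p = 0.129) or naive 3 (edgeR adjusted p = 0.0696). Its cytosolic partner Cars had 17.8, 23.9, 21.3 and 26.5 CPM and then 23.3, 30.3, 18.4, 38.1 and 18.2, with overlap (edgeR adjusted p = 0.629). Cars2 shares 422 exonic bases with Naxd, a metabolite repair gene, on the opposite strand.

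The remaining mitochondrial enzymes moved in no common direction. Aars2, the mitochondrial alanyl enzyme, had 7.04, 7.91, 6.31 and 5.66 CPM in naive libraries and 8.20, 10.7, 11.3, 13.6 and 9.34 CPM after bleomycin. Its groups did not overlap, and its estimate of 0.65 (SE 0.27) had an edgeR adjusted p of 0.0961. Tars2, the threonyl enzyme, lay lower in every bleomycin library, with 20.1, 18.0, 19.2 and 23.8 CPM and then 16.4, 15.7, 16.4, 17.3 and 17.4, at -0.28 (SE 0.18, edgeR adjusted p = 0.285). Of the 15 members of this class tested, Aars2 and Mars2 were thus separated upward and Tars2 downward. Among all genes tested, 10.4% were separated upward and 9.35% downward, so these numbers are near the general share. Lars2 read 3471, 2345, 2096 and 2125 CPM and then 2151, 2527, 1326, 1894 and 1391, at -0.43 (SE 0.19, edgeR adjusted p = 0.115). It was called lower without bleomycin 2 (edgeR adjusted p = 0.0335) and with no filter on low counts (edgeR adjusted p = 0.0320). Yars2 (0.55, SE 0.35), Ears2 (0.40, SE 0.42), Nars2 (0.10, SE 0.34), Fars2 (0.06, SE 0.27), Sars2 (-0.12, SE 0.48) and Hars2 (-0.35, SE 0.22) had wide errors. Mitochondrial members were counted less, and their median SE was 0.271 against 0.165 for cytosolic members, so a change of the cytosolic size would be harder to call among them.

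The level of the genes was set beside these counts. Of 5956 tested genes whose naive level lay within the cytosolic range (13.6 to 130 CPM), 10.6% were called higher and 10.8% lower, with a median of -0.01. Of 7982 genes within the mitochondrial range without Lars2 (3.36 to 61.0 CPM), 8.41% were called higher and 7.89% lower, also with a median of -0.01. The 7 of 20 cytosolic calls are above the share at like level. Without Lars2, the 0 higher and 1 lower of 14 mitochondrial members tested are near it.

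The classes were also set side by side within each library. A class score was taken as the mean over members of log2 CPM relative to the naive mean. The cytosolic score lay between -0.06 and 0.06 in naive libraries and read 0.28, 0.58, 0.36, 0.48 and 0.28 in bleomycin 1 to 5. The mitochondrial score without Lars2 lay between -0.07 and 0.04 in naive libraries and read -0.02, -0.15, 0.15, 0.04 and -0.01 after bleomycin. Every bleomycin library lay above all naive ones for the cytosolic score, and the mitochondrial scores overlapped. The difference between the scores was -0.05 to 0.05 in naive libraries and 0.30, 0.72, 0.20, 0.43 and 0.29 after bleomycin, with bleomycin 2 widest. Summed over genes, cytosolic enzymes made up 806 to 869 CPM in naive and 989 to 1212 CPM in bleomycin libraries, and mitochondrial enzymes without Lars2 222 to 259 and 227 to 255 CPM. In the poly(A) libraries the difference of scores ran from -0.05 to 0.07 with vehicle and from -0.08 to 0.03 with ISRIB. The scores are descriptions and carry no test.

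**Figure D4:**
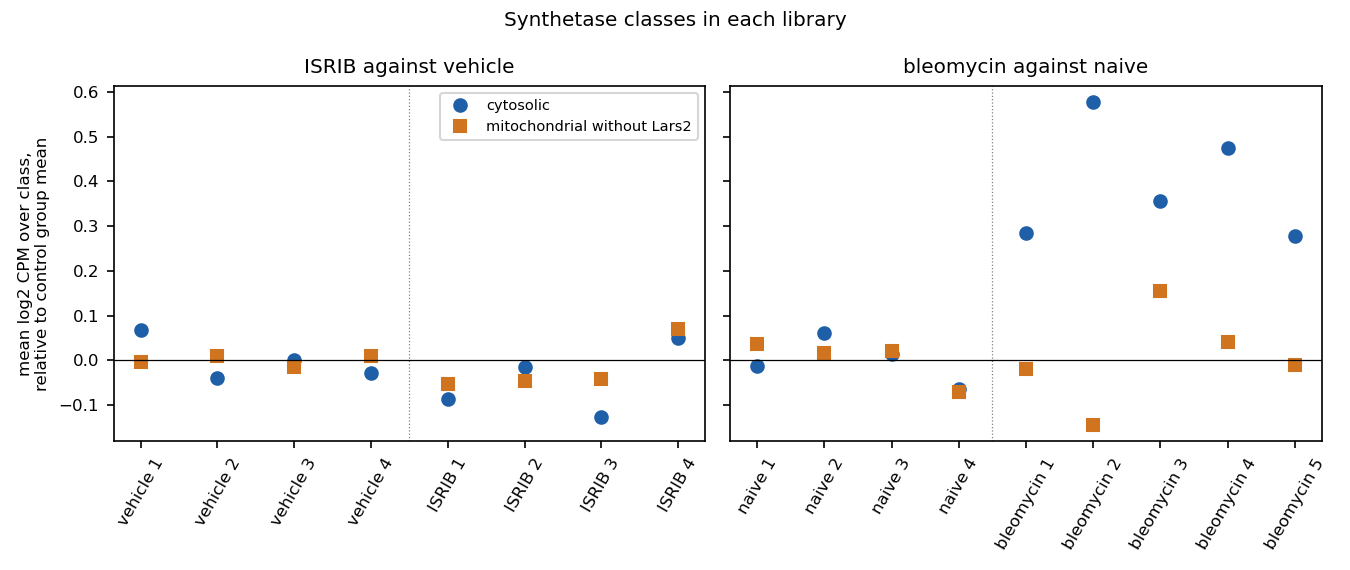
Class score per library, the mean log2 CPM of cytosolic and of mitochondrial synthetases (without Lars2) relative to the mean of the control group, in both experiments. Each point is a library; the cytosolic scores of the 5 bleomycin libraries, 0.28 to 0.58, all lie above their controls, while the mitochondrial scores after bleomycin and both scores after ISRIB lie on both sides of 0.

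Enzymes for the same amino acid were then compared directly, since a ratio within a library does not depend on its scaling. For 16 pairs, the log2 ratio of cytosolic to mitochondrial counts (0.5 added to each) was compared between groups with a two-sided exact permutation test. Fars2 enters 2 pairs, with Farsa and with Farsb. Eprs was paired with Ears2 only, so its prolyl partner Pars2 enters no pair. After bleomycin the mean ratio lay above that of naive libraries in 14 of 16 pairs, with a median difference of 0.45. It was separated between groups for Iars to Iars2 (0.66), Lars to Lars2 (0.76) and Wars to Wars2 (0.87), each with an exact permutation p of 0.0159, the smallest that 5 against 4 libraries allow. Hars to Hars2 (0.78, exact p = 0.0317), Rars to Rars2 (0.80, exact p = 0.0476) and Tars to Tars2 (0.68, exact p = 0.0476) overlapped. These p-values are not adjusted for the number of pairs. Iars, Wars and Rars were already called higher from the same counts, so their ratios are not separate evidence. No share over other pairs of genes was taken to set beside these pairs. Cars to Cars2 had the widest difference, 1.04, with an exact p of 0.0635, and Eprs to Ears2 (-0.13) and Yars to Yars2 (-0.19) lay below 0. The Lars pair rests on the Lars2 row. After ISRIB it lay above that of vehicle libraries in 4 of 16 pairs, with a median of -0.07, and the smallest exact p was 0.0857, where 4 against 4 libraries allow 0.0286.

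**Figure D5:**
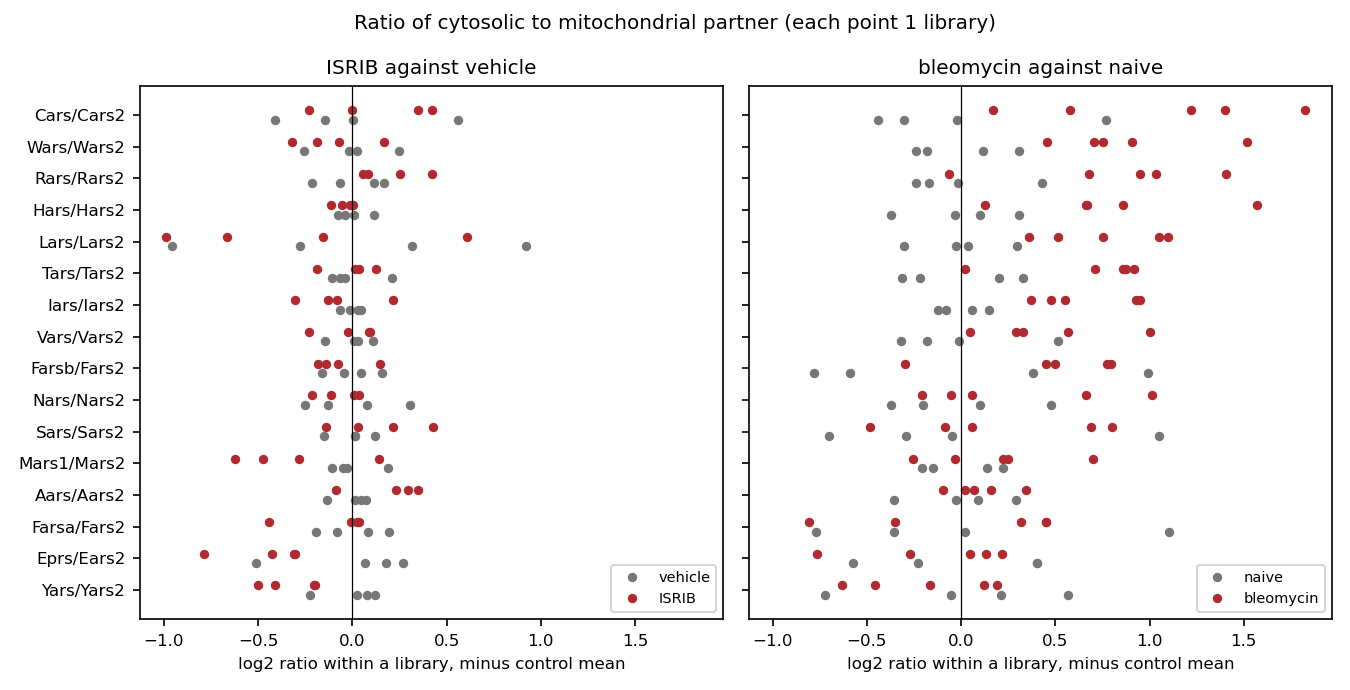
Log2 ratio of cytosolic to mitochondrial synthetase in each library, minus the mean of the control group, for 16 pairs after ISRIB and after bleomycin. Each point is a library, grey for controls and red for treated; the mean of the red points lies right of 0 in 14 of 16 pairs after bleomycin and in 4 of 16 after ISRIB.

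Apart from the tRNA genes of the mitochondrial genome, lists of other genes of the pathway held few calls after bleomycin. The complex scaffolds had 0 of 3 called (Aimp1 -0.10, Eef1e1 0.07 and Aimp2 0.70, edgeR adjusted p = 0.223 for Aimp2). Genes of tRNA processing and export had 0 of 11 called (median -0.03), editing enzymes and peptidyl-tRNA hydrolases 0 of 5, the mitochondrial modifiers of charged tRNA (the GatCAB subunits and Mtfmt) 0 of 4, and cytosolic elongation factors 0 of 5. Of 4 mitochondrial elongation factors, Tufm, which brings charged tRNA to the mitochondrial ribosome, rose from 12.4 ± 3.58 to 20.2 ± 1.77 CPM (0.71, SE 0.21, edgeR adjusted p = 0.0246). Of 75 tested rows named as mitochondrial ribosomal proteins, 6 rose and 0 fell, beside the 11.2% higher and 9.31% lower of all genes tested. Their median was 0.27 with 62 estimates above 0, and the lowest p were those of Mrps6 (1.40), Mrpl46 (1.24) and Mrps18a (0.78). The 22 tRNA genes of the mitochondrial genome summed to 72.4 to 261 CPM in naive and 10.7 to 19.4 CPM in bleomycin libraries. Their products are the substrates of the mitochondrial enzymes, but whether these counts come from mature tRNA was not tested. Only 8 of these 22 rows passed the filter on low counts, and all 8 were called lower. A row could pass that filter through its naive values alone, so the count of calls is not separate support for a fall.

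Genes upstream of ATF4 and its other targets were mixed after bleomycin. Eif2ak4, the gene of GCN2, fell from 80.4 ± 3.38 to 56.2 ± 9.09 CPM (log2 fold change -0.52, SE 0.13, edgeR adjusted p = 0.00835), and its groups did not overlap. Atf4 mRNA stood at 93.9 ± 11.1 and 80.9 ± 18.9 CPM (-0.22, edgeR adjusted p = 0.354). Of 17 other ATF4 targets tested, 6 rose and 2 fell, with a median of 0.30. Among all genes tested 11.2% were called higher and 9.31% lower. Sesn2, a leucine sensor, rose from 19.9 ± 3.48 to 36.2 ± 6.33 CPM (0.85, edgeR adjusted p = 0.00246), and Psat1, an enzyme of serine synthesis, from 4.47 ± 1.73 to 12.8 ± 5.59 (1.46, edgeR adjusted p = 0.00880). Nupr1, a stress-induced chromatin protein, fell from 172 ± 22.8 to 97.4 ± 24.1 CPM (-0.82, edgeR adjusted p = 0.00119). Asns, the asparagine synthetase gene, stood at 7.42 ± 4.38 and 8.70 ± 1.74 CPM (0.22, edgeR adjusted p = 0.709). After ISRIB, 1 of 20 such targets rose (Slc3a2, an amino acid transporter subunit, 0.35, edgeR adjusted p = 0.0137) and 1 fell (Psat1, -0.82, edgeR adjusted p = 0.00945). In that comparison 1.1% of all tested genes were called higher and 1.1% lower. Asns (-0.39) and Atf4 (0.27) had edgeR adjusted p of 0.0652 and 0.0690 there, and the 9 other pathway lists had 0 called.

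Markers of other cells and of division moved with bleomycin as well. Among the 10 AT2 markers 2 were called higher and 1 lower, and 7 estimates lay below 0. Over all genes tested, 11.2% were called higher and 9.31% lower. Summed alveolar type 1 markers ran from 1060 to 1270 CPM in naive and from 1860 to 2230 CPM in bleomycin libraries, and 6 of 7 rose. Proliferation genes such as Mki67 ran from 38.2 to 86.4 and from 293 to 487 CPM, and 4 of 6 tested rose. A gene low in naive libraries could pass the filter on low counts through its bleomycin values alone. Fibroblast markers ran from 3.88 to 9.10 and from 17.8 to 120 CPM. Only 3 of these 7 passed the filter, so no count of calls is given for them. Endothelial markers (15.8 to 22.7 and 16.5 to 58.0 CPM) and airway markers (375 to 770 and 416 to 800 CPM) each had 1 gene called higher. Macrophage and monocyte markers (6.45 to 9.10 and 6.19 to 10.1 CPM) had 0 of 2 tested called, and lymphocyte markers stayed at 0.910 CPM or less. The part of dividing, type 1-like or other cells in the synthetase values was not tested.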

How the data were processed

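The authors deposited raw read counts per gene in 2 tables, 1 per kit, whole numbers whose totals differ between libraries. The submitters' processing notes name bcl2fastq 2.19.1, FastQC, Trimmomatic 0.36, STAR 2.6.0, HTSeq 0.11.2 and the build mm10. Neither the annotation nor the strand setting was given in the sources used here. Symbols, positions, overlaps and transcript lengths came from GENCODE M21 (GRCm38) by gene ID, and 42462 of 43430 IDs had a symbol. The members and all lists were chosen with earlier results of these data known.

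Within each kit, counts were filtered (filterByExpr, minimum count 10, minimum total 15), scaled by TMM and fitted by group alone with edgeR 4.0.16 (R 4.3.3), whose quasi-likelihood F test was used two-sided. Adjustment was by Benjamini-Hochberg over all genes tested, with a threshold of 0.05. CPM use the effective library sizes, except that sums over marker and pathway lists use raw totals. The SE is the unshrunk log2 fold change divided by the root of F. Class scores used log2 CPM with a prior count of 2. The procedure was run on simulated counts drawn from the fitted model itself, which cannot show whether that model or the scaling holds for these data. Pairs were compared in Python 3.11.15 with scipy 1.17.1.

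Per-library values, fold changes and p-values are given for called members and for the partner of a called member, other members by range and count, and at most 3 called genes of a pathway list, with Atf4, Asns and Psat1 in addition. Eprs, Mars1, Sars, Hars and Lars2 after ISRIB, and Eprs, Tars2, Lars2 and the uncalled members given with values after bleomycin, were named after their values were seen. Alternatives were RLE scaling, no filter, DESeq2 1.42.0, limma-voom (limma 3.58.1), the replicate number as a block, leaving out rRNA-like gene models, and leaving out each library in turn.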

Additional observations from a re-analysis of the deposited data

Results flagged for a closer look

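A single library stood apart from the others of its group for 5 of 144 groups of member values, by Dixon's test at 95%, where chance flags about 1 group in 20. Aars read 141 CPM in bleomycin 4, where the other 4 bleomycin libraries had 90.6 to 99.8, and Eprs read 179 CPM in bleomycin 2, where the others had 147 to 154. In both cases the groups were separated with or without that library. In ISRIB 4, Sars read 115 CPM (others 111 to 112), the mitochondrial glutamyl gene Ears2 5.62 CPM (others 3.68 to 3.85) and the mitochondrial prolyl gene Pars2 2.98 CPM (others 2.04 to 2.08).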

How the results depend on the processing

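No alternative called a synthetase after ISRIB. Over all genes, 265 were called there, 648 with no filter on low counts, 406 with DESeq2 and 86 to 269 when single libraries were left out. After bleomycin, Aars, Vars, Kars and Wars kept their calls under all 15 alternatives, Iars under 14, Cars2 under 13, Mars1 under 8 and Rars under 6. Without a filter 2 mitochondrial members were called instead of 1, their median log2 fold change was 0.034 instead of -0.04, and the median of all genes moved to -0.27. When single libraries were left out, 0 to 2 mitochondrial members were called with a median from -0.073 to 0.025, and 5 to 8 cytosolic members with a median from 0.36 to 0.47. DESeq2 added Eprs, and limma-voom lost Rars (adjusted p = 0.0687). Replicate numbers did not pair libraries: deviations of same-numbered libraries correlated at -0.109 to 0.0849 after ISRIB and -0.0393 to 0.0474 after bleomycin, and 1 of 4 libraries in each correlated best with its own number. With a replicate block, 277 genes were called after ISRIB with 0 members, and 2187 after bleomycin with 6 cytosolic members (Mars1 lost, edgeR adjusted p = 0.0742) and 1 mitochondrial member. Depth limits the mitochondrial class most, since its members had the lower counts.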
